A study of Homo sapiens with 12 samples.

Results

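Of the 60106 genes in each table, 9 were followed here. They encode enzymes and subunits that modify or move nucleosomes: the H3K4 methyltransferases KMT2A, KMT2C and KMT2D, the lysine demethylase KDM1A (LSD1), the Polycomb methyltransferase EZH2, the acetyltransferases EP300 and CREBBP, the ATPase SMARCA4 (BRG1) and its partner subunit ARID1A. They were chosen by name, as regulators known to act with or on FOXA1, and each name matched 1 row of every table. All 9 passed the filter on low counts in both cell lines. The libraries came from 2 established prostate cancer cell lines. PC3 was grown in RPMI and transfected with 20 nM siRNA, and VCaP was grown in DMEM and transfected with 40 nM. Within each line, 3 libraries received a non-targeting siRNA (NSI) and 3 received siRNA against FOXA1 (siFOXA1), and all were harvested after 72 h. PC3 libraries were made from mRNA and VCaP libraries from total RNA, so an effect of the line cannot be told apart from one of kit, dose or medium.

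FOXA1 is a pioneer factor: it binds DNA that is still wrapped in nucleosomes and opens enhancers for other factors. The enzymes described here work at the same enhancers. KMT2C and KMT2D place monomethyl marks on enhancers, EP300 and CREBBP acetylate them, SWI/SNF complexes built on SMARCA4 slide or eject nucleosomes, KDM1A removes methyl groups and can act on FOXA1 itself, and EZH2 places the repressive H3K27 mark. ARID1A targets SWI/SNF, and KMT2A acts mostly at promoters.

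The line labels were checked against marker genes. The luminal prostate markers KLK3, KLK2, ERG and TMPRSS2 were each under 1 CPM (counts scaled to a common library size with normalization factors) in both PC3 groups and each above 1 CPM in both VCaP groups. KLK3 was at 102.2, 51.4 and 54.6 CPM in the VCaP NSI libraries and at 78.2, 65.3 and 46.4 CPM under siFOXA1. VIM, a mesenchymal filament gene, was at 718.8 to 776.4 CPM in PC3 NSI and under 1 CPM in VCaP. Library totals were 123140099 to 188226483 counts for PC3; the VCaP totals were 48187047 to 59839211. The libraries labelled PC3 replicate 2 stood apart, NSI more than siFOXA1: genes with long exon sequence were low in them, which touches 6 of the 9 regulators and is described with values after them.

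FOXA1, the siRNA's target, was lower in all 6 siFOXA1 libraries. PC3 held it at 296.2, 246.5 and 260.9 CPM in the NSI libraries (replicates 1, 2 and 3, the order used throughout) and at 165.0, 184.1 and 163.6 CPM under siFOXA1. In VCaP it was at 457.6, 467.9 and 543.5 CPM in NSI and 85.2, 73.6 and 83.1 CPM under siFOXA1. The remaining level was 63.8% of NSI in PC3 and 16.5% in VCaP, and the log2 fold changes were -0.65 (SE 0.10, edgeR adjusted p = 0.00222) and -2.60 (SE 0.09, adjusted p = 1.84e-07). An exact two-sided permutation test of 3 against 3 gave p = 0.1 in each line, the smallest it can give.

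In PC3, 3 of the 9 regulators fell: SMARCA4, KDM1A and EZH2. In VCaP, 2 of 9 fell, EZH2 and SMARCA4, and none rose in either line in the fits without a replicate term. Of all genes tested, 12.1% fell and 15.0% rose in PC3, and 23.3% fell and 22.5% rose in VCaP. The regulators' share of falling genes in VCaP was therefore close to that of all genes. The median log2 fold change of the 9 was -0.18 in PC3, where the median of all genes was 0.02, and -0.09 in VCaP, where it was 0.02. SMARCA4 fell more in PC3, EZH2 had the lower estimate in VCaP, and the 6 longest genes (KMT2A, KMT2C, KMT2D, EP300, CREBBP and ARID1A) were not called in either line in those fits. With the replicate number blocked, KMT2C was also called higher and CREBBP lower in PC3, where 21.7% of all genes rose and 21.0% fell.

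**Figure D1:**
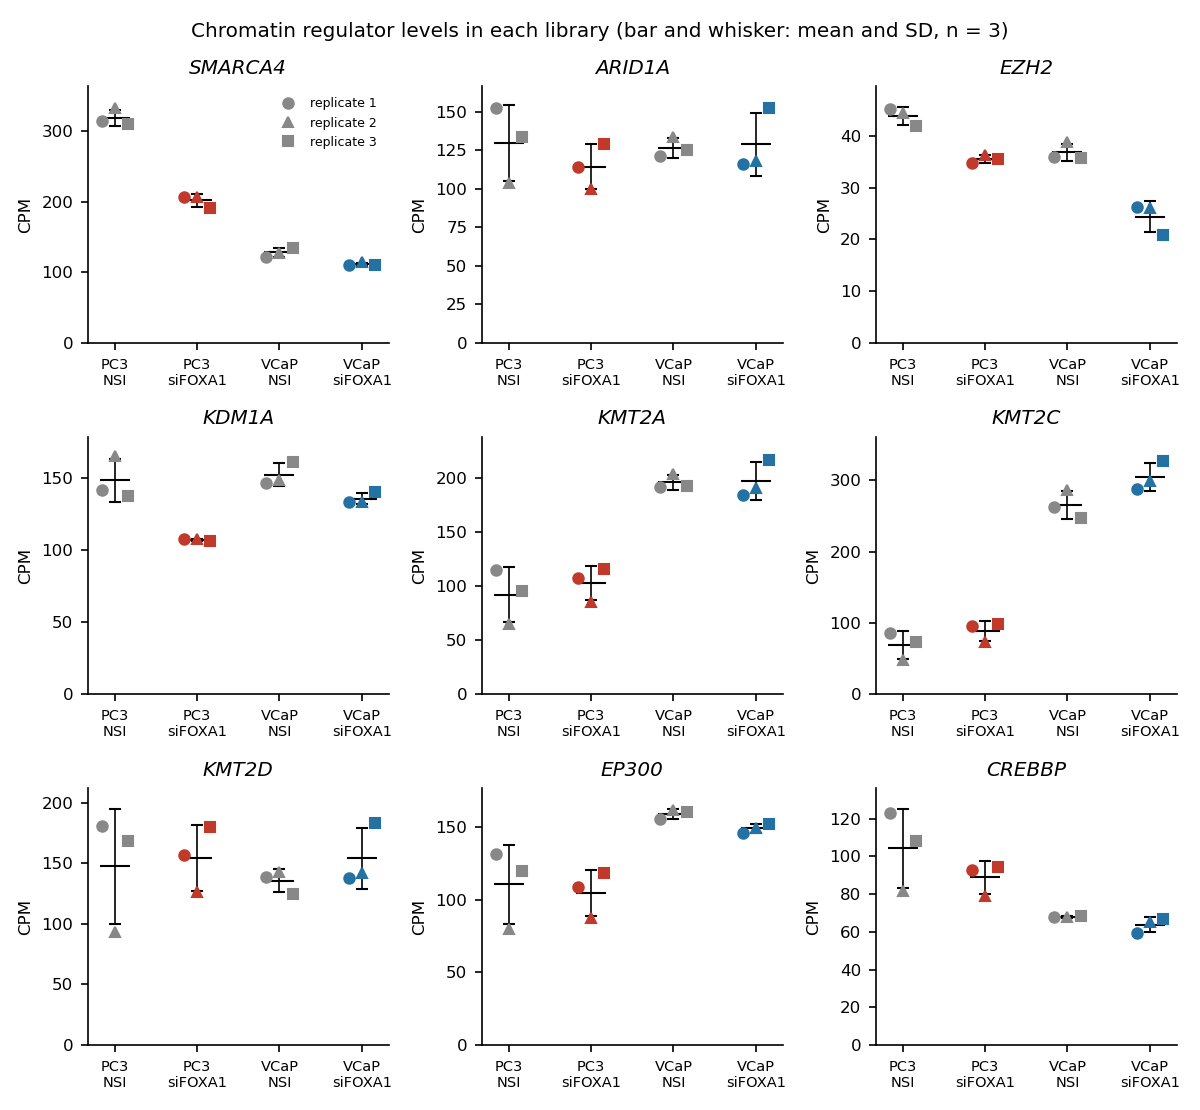
Level of each regulator in CPM (vertical axes, from 0) in the 12 libraries, with grey for NSI, red for siFOXA1 in PC3 and blue for siFOXA1 in VCaP; symbols give the replicate number, and the bar and whisker are the mean and SD of 3. SMARCA4, KDM1A and EZH2 have no overlap between NSI and siFOXA1 in PC3, while in the other 6 genes the triangle of replicate 2 lies lowest in both PC3 groups. In VCaP SMARCA4, EZH2, KDM1A, KMT2C, EP300 and CREBBP have no overlap, and only SMARCA4 and EZH2 were called. The share of all genes without overlap was not computed, so a lack of overlap is a description here.

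Of the 9, EZH2 and SMARCA4 were the genes called in both lines, and the promoters of these 2 are shown for that reason. All 9 genes matched a promoter window in RefSeq (GRCh38.p14), 12 windows in all, since EZH2, CREBBP and SMARCA4 have 2 each. A window covers 250 bases before and 50 after a transcription start and is written in the direction of the gene. Motifs of 4 kinds were searched on both strands: a forkhead core (written TGTTTAC, with a form spelled TGTTTGC and another form spelled TATTTAC), E2F (TTTCCCGC, TTTGGCGC, TTTGCCGC or TTTCGCGC), the cell cycle homology element CHR (written TTTGAA, with another form spelled TTCGAA) and the box CCAAT. In the lines below, capitals mark motif matches.
EZH2, chr7:148884242-148884541, minus strand: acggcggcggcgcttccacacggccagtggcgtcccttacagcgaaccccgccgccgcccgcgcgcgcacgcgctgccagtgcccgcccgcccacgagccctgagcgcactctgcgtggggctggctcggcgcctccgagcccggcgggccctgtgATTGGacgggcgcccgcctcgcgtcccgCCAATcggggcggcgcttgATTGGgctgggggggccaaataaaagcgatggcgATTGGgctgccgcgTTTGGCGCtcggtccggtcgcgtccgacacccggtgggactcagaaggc
SMARCA4, chr19:10960780-10961079, plus strand: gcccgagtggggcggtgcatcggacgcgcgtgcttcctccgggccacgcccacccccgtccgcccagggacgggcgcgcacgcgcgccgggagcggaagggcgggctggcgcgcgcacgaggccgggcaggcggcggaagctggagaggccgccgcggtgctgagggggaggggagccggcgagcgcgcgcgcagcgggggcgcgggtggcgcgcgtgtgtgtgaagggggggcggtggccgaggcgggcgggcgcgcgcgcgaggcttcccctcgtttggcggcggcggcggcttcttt
The EZH2 window held 1 E2F match (TTTGGCGC, from base 252 of the window) and 4 CCAAT matches. On the strand printed, 3 of these 4 read ATTGG (from bases 157, 204 and 238) and 1 read CCAAT (from base 185). The SMARCA4 window and the other 10 windows of these genes held none of the 4 motifs. Over 35116 promoter windows of the same length, 3.31% held the E2F letters, 34.6% CCAAT, 16.4% CHR and 9.57% the forkhead letters. A match is a match of letters and no evidence of binding, and enhancers, where FOXA1 mostly binds, lie outside these windows.

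SMARCA4 (ENSG00000127616.18_4, chromosome 19, 11071501 to 11173144, plus strand, GRCh37) encodes 1 of 2 alternative ATPases of SWI/SNF. PC3 libraries held it at 314.5, 332.2 and 310.5 CPM in NSI and at 207.2, 206.8 and 191.9 CPM under siFOXA1, and the lowest NSI library stood well above the highest siFOXA1 library. Its level fell to 63.3% of NSI, a log2 fold change of -0.66 (SE 0.08, edgeR adjusted p = 0.000697). In VCaP the NSI libraries were at 122.4, 127.9 and 134.6 CPM and the siFOXA1 libraries at 109.9, 114.1 and 109.9 CPM, again without overlap, at 86.8% of NSI. The VCaP log2 fold change in the fit was -0.20 (SE 0.06, adjusted p = 0.0216). On the TPM scale, described with the levels per length, SMARCA4 in VCaP was at 80.0, 85.7 and 81.5 in NSI and 82.9, 86.8 and 81.3 under siFOXA1, with overlap, where the median gene was higher by 0.18 on the log2 scale of TPM. The call in the fit was lost when VCaP NSI replicate 3 or VCaP siFOXA1 replicate 1 or 2 was left out, in the fit of all 12 libraries and with upper-quartile factors, with adjusted p up to 0.105. The VCaP effect was less negative than the PC3 effect by 0.47 on the log2 scale (SE 0.11, interaction adjusted p = 0.00447). SMARCA4 was the only 1 of the 9 whose effect differed between the lines in that fit, in which 11.3% of all genes were called more positive and 11.0% more negative in VCaP.

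Its paralog SMARCA2 (BRM), the alternative ATPase, fell in VCaP and not in PC3. PC3 held SMARCA2 at 25.6, 23.1 and 24.9 CPM in NSI and 28.2, 26.8 and 28.7 CPM under siFOXA1 (log2 fold change 0.18, SE 0.08, edgeR adjusted p = 0.138, and 0.0355 with the replicate number as a block). VCaP libraries went from 137.8, 134.2 and 126.8 to 112.1, 111.4 and 108.2 CPM (log2 fold change -0.27, SE 0.06, adjusted p = 0.00536). On the TPM scale SMARCA2 in VCaP was at 46.1, 46.1 and 39.3 in NSI and 43.3, 43.4 and 41.0 under siFOXA1, with overlap. Per exon length, SMARCA4 exceeded SMARCA2 25.4-fold in PC3 NSI and 14.1-fold in PC3 siFOXA1, with no overlap between the groups. In VCaP the ratio was 1.88 in NSI and 1.97 in siFOXA1, and the groups overlapped. The 2 ATPases were therefore far less unequal in VCaP than in PC3 before any knockdown. With 3 libraries against 3, the exact permutation test used for the ratios cannot go below 0.1: its p was 0.1 in PC3 (0.233 adjusted over 14 ratio tests) and 0.6 in VCaP.

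ARID1A (ENSG00000117713.19_4, chromosome 1, 27019727 to 27108601, plus strand) encodes the large DNA-binding subunit that defines the canonical BAF form of SWI/SNF. In PC3 it was at 152.7, 103.8 and 133.3 CPM in NSI and 114.2, 99.7 and 129.1 CPM under siFOXA1, and in VCaP at 121.0, 133.5 and 125.0 and at 116.2, 117.8 and 152.6 CPM. The groups overlapped in both lines. The log2 fold change was -0.18 in PC3 (95% interval -0.53 to 0.16, edgeR adjusted p = 0.396) and 0.03 in VCaP (-0.21 to 0.26, adjusted p = 0.859). A gene on the opposite strand overlaps 3.94% of its exon length, which the PC3 counting without strand could not separate. For the other 8 regulators such overlaps covered at most 1.15% of the exons.

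Among 25 tested BAF and PBAF subunits other than these 2, 2 rose and 4 fell in PC3 (median log2 fold change -0.14), where 15.0% of all genes rose and 12.1% fell. With the replicate number as a block, 5 rose and 9 fell in PC3, where 21.7% of all genes rose and 21.0% fell. The 4 lower calls became 0 without PC3 siFOXA1 replicate 1, 1 without NSI replicate 3, 2 without NSI replicate 1, and 8 with DESeq2. The 2 higher calls became 1 when any PC3 library other than NSI replicate 2 was left out. In VCaP 2 rose and 10 fell (median -0.15), where 22.5% of all genes rose and 23.3% fell, and leaving out a VCaP library left 0 or 1 higher and 9 to 11 lower. DPF3, a subunit that reads histone acetylation, rose in PC3 from a low level (2.02, 2.29 and 2.10 CPM in NSI, 3.84, 4.55 and 3.79 CPM under siFOXA1, log2 fold change 0.92, edgeR adjusted p = 0.00144) and was too low to be tested in VCaP. SMARCD1, a core subunit that contacts transcription factors, fell in VCaP from 69.5, 67.8 and 72.0 to 43.7, 43.5 and 41.3 CPM (log2 fold change -0.70, adjusted p = 9.09e-06), and in PC3 its log2 fold change was -0.21 (adjusted p = 0.0759, and 0.0175 with the block). BRD9, the bromodomain subunit of noncanonical BAF, fell in PC3 (log2 fold change -0.37, adjusted p = 0.0164) and stood at 0.13 in VCaP (adjusted p = 0.162). BCL7B fell in PC3 (-0.40, adjusted p = 0.0241) and rose in VCaP (0.21, adjusted p = 0.0335). Of these 4 subunits, named as the strongest calls of each direction and line, BCL7B was called in opposite directions.

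**Figure D2:**
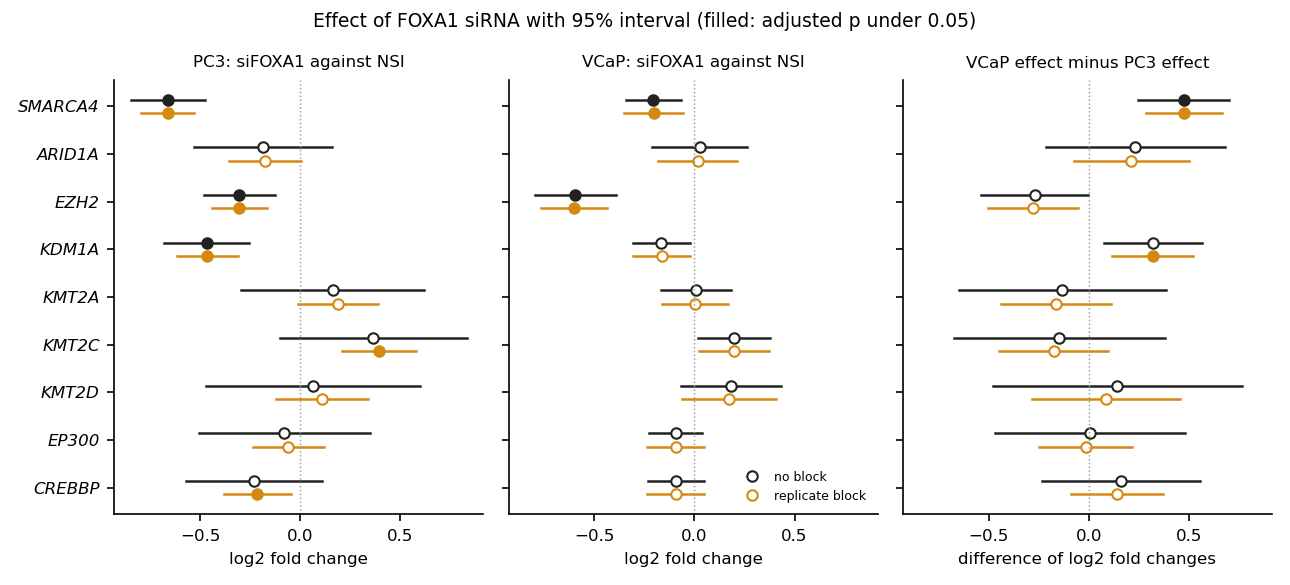
Log2 fold change of siFOXA1 against NSI in PC3 (left) and VCaP (middle) and the difference between the lines (right) for each regulator, with 95% intervals; black is the fit without a block and orange the fit in which the replicate number was blocked, and filled points have an adjusted p under 0.05. SMARCA4 and EZH2 lie below 0 in both lines, and the block narrows the PC3 intervals of the 6 longest genes.

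EZH2 (ENSG00000106462.10_4, chromosome 7, 148504476 to 148581379, minus strand) encodes the catalytic subunit of Polycomb repressive complex PRC2 and is known to be abundant in dividing cells. Its PC3 levels were 45.2, 44.5 and 41.9 CPM in NSI and 34.8, 36.3 and 35.6 CPM under siFOXA1. In VCaP it was at 36.0, 38.7 and 35.7 CPM in NSI and 26.2, 26.0 and 20.9 CPM under siFOXA1. The groups did not overlap in either line, and siFOXA1 replicate 3 was the lowest in VCaP. The level fell to 81.0% of NSI in PC3 (log2 fold change -0.30, SE 0.08, edgeR adjusted p = 0.0222) and to 66.2% in VCaP (-0.59, SE 0.09, adjusted p = 0.000545). The difference between the lines, -0.27 (SE 0.13), did not pass the test (adjusted p = 0.147). The PC3 call was lost when replicate 1 or replicate 3 of either PC3 group was left out, with adjusted p up to 0.106.

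EZH1, the paralog that takes the place of EZH2 in resting cells, rose in both lines. In PC3 it went from 14.9, 15.8 and 15.6 CPM in NSI to 20.2, 23.3 and 22.2 CPM under siFOXA1 (log2 fold change 0.50, SE 0.09, edgeR adjusted p = 0.00476). In VCaP it went from 12.3, 13.1 and 12.0 to 20.0, 22.03 and 22.4 CPM (0.79, SE 0.07, adjusted p = 2.86e-05). The rise and the fall together moved the ratio of EZH2 to EZH1 per exon length from 4.30 to 2.47 for PC3 and, for VCaP, from 4.48 to 1.71. On the log2 scale the ratio was 2.20, 2.09 and 2.02 in PC3 NSI, 1.38, 1.24 and 1.28 in PC3 siFOXA1, 2.15, 2.16 and 2.17 in VCaP NSI and 0.98, 0.84 and 0.50 in VCaP siFOXA1. Neither line's groups overlapped, and the exact permutation p was 0.1 in each, the smallest possible (0.233 adjusted over 14 tests).

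**Figure D3:**
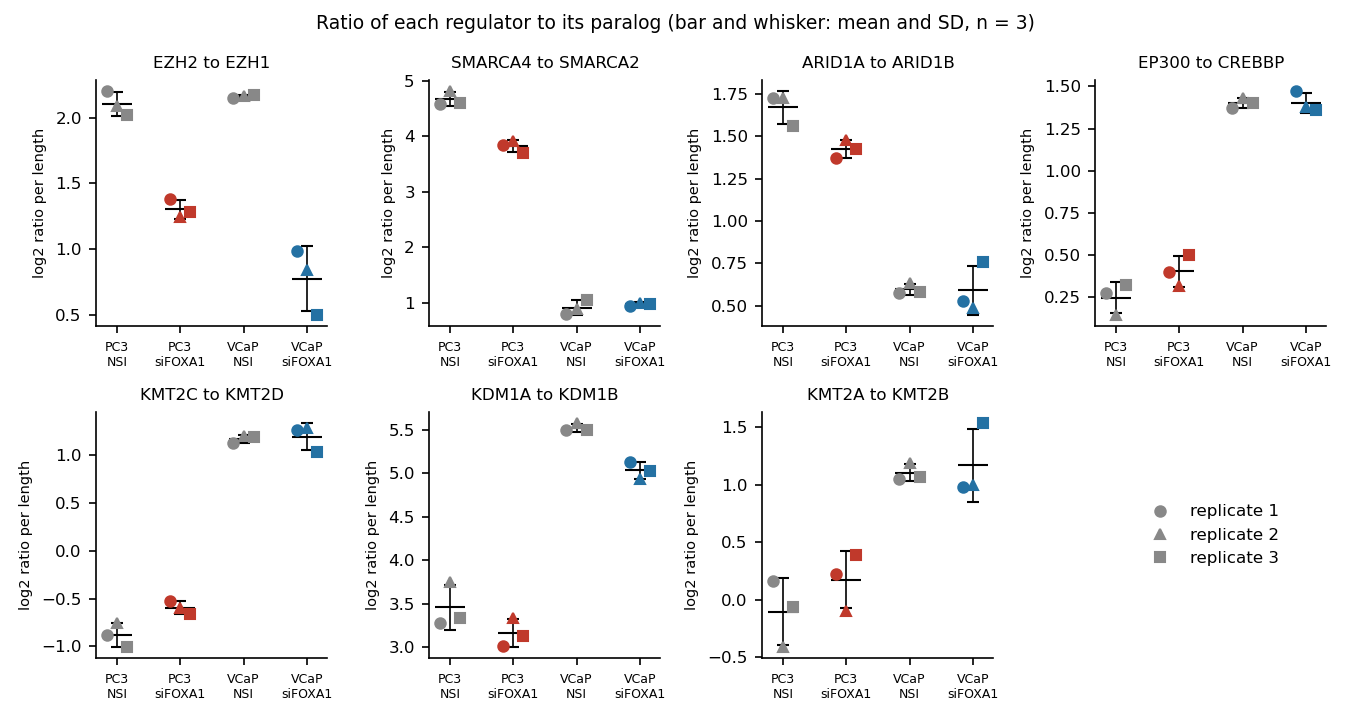
Log2 ratio per exon length of each regulator to its paralog (vertical axes, which differ between panels and do not start at 0) in the 12 libraries, with symbols for the replicate number and the mean and SD of 3. The ratio of EZH2 to EZH1 is lower in siFOXA1 in both lines, and that of SMARCA4 to SMARCA2 is lower in PC3 siFOXA1 and overlaps between the VCaP groups. In PC3, ARID1A to ARID1B (mean 1.67 in NSI, 1.42 in siFOXA1) and KMT2C to KMT2D (-0.88 and -0.59) also do not overlap. Both overlap in VCaP. The exact permutation p of these 2 in PC3 was 0.1, the smallest possible.

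The other 12 tested PRC2 genes, EZH1 included, moved in both directions. In PC3 EZH1 rose and 3 fell (SUZ12, EPOP and AEBP2), with a median log2 fold change of -0.01, where 15.0% of all genes rose and 12.1% fell. With the replicate block 2 rose and 3 fell, where 21.7% of all genes rose and 21.0% fell. In VCaP 5 rose and RBBP4 fell, with a median of -0.01, where 22.5% of all genes rose and 23.3% fell. Without VCaP NSI replicate 3, 2 fell. SUZ12, a core subunit without which the complex is not stable, fell in PC3 from 63.6, 56.9 and 61.5 to 43.0, 37.9 and 42.0 CPM (-0.57, SE 0.09, edgeR adjusted p = 0.00253). In VCaP SUZ12 was at 131.6, 146.9 and 135.6 CPM in NSI and 127.4, 125.0 and 137.4 CPM under siFOXA1 (-0.09, adjusted p = 0.330). RBBP4, a histone chaperone that PRC2 shares with other complexes, fell in VCaP (-0.62, SE 0.07, adjusted p = 7.17e-05) and stood at 0.15 in PC3 (adjusted p = 0.210).

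Most proliferation genes moved in the same direction as EZH2. Of 20, 12 fell in PC3 and none rose (median log2 fold change -0.57), where 12.1% of all genes fell. All 20 fell in VCaP (median -0.82), where 23.3% of all genes fell. With the replicate number as a block, 17 fell and none rose in PC3, where 21.0% of all genes fell. The 8 not called in PC3 without the block included MCM2, MCM3 and MCM5, with log2 fold changes of -0.08, 0.0009 and 0.05. Without both PC3 replicate 2 libraries, 13 fell and MCM5 rose. The summed level of the 20 went from 896.7 to 1024 CPM in PC3 NSI to 603.7 to 634.2 CPM under siFOXA1, and from 2958 to 3060 to 1588 to 1935 CPM in VCaP. MKI67, the gene of the Ki-67 antigen, fell by 0.72 on the log2 scale in PC3 (edgeR adjusted p = 0.00424), and the VCaP libraries fell by 0.83 (adjusted p = 0.000114). TOP2A, a topoisomerase of dividing cells, fell by 0.75 in PC3 (adjusted p = 0.00111), and VCaP libraries by 0.47 (adjusted p = 0.00390). The part of this shift in the fall of EZH2 was not tested. In bulk RNA, fewer cells of a type and less RNA per cell cannot be told apart.

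In a search of 9879 genes that averaged 5 CPM or more in both lines, the 3 whose profile was most like that of EZH2 across the 12 libraries, after each line was centred, were NUSAP1, KNSTRN and KIF4A (Pearson r 0.985, 0.984 and 0.982). For SMARCA4 they were MARK3, NSUN2 and NONO (r 0.995, 0.990 and 0.985). These are the highest values of a search, over libraries whose depth all genes share, and serve as a description. NUSAP1 and KIF4A are mitotic spindle and chromosome genes, with log2 fold changes of -0.51 and -0.78 for NUSAP1 and -0.44 and -0.95 for KIF4A in PC3 and VCaP, values that the search itself favoured. NONO, an RNA-binding protein of paraspeckles, was at 647.9, 684.5 and 664.2 CPM in PC3 NSI and 243.1, 277.0 and 260.5 CPM in PC3 siFOXA1, and its log2 fold change was -1.36 in PC3 and -0.42 in VCaP.

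KDM1A (ENSG00000004487.16_4, chromosome 1, 23345936 to 23410182, plus strand) encodes LSD1, the demethylase of the CoREST repressor complex. In PC3 it was at 141.6, 165.4 and 137.7 CPM in NSI and at 107.5, 107.8 and 106.4 CPM under siFOXA1. The 3 siFOXA1 libraries were nearly equal and all lay below the lowest NSI library, at 72.3% of NSI (log2 fold change -0.47, SE 0.09, edgeR adjusted p = 0.00736). In VCaP it was at 146.7, 148.3 and 161.3 CPM in NSI and 133.6, 133.4 and 140.1 CPM under siFOXA1, at 89.2% of NSI. The VCaP groups did not overlap, but the log2 fold change of -0.16 (95% interval -0.31 to -0.02) missed the threshold after adjustment (adjusted p = 0.0611). The difference between the lines was 0.32 (SE 0.12, adjusted p = 0.0603) and passed with a replicate block (adjusted p = 0.0206), in a fit that also pairs VCaP libraries whose numbers were not shown to pair.

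Of 13 tested CoREST partners and paralogs, 3 fell in PC3, HDAC1 and HDAC2 among them, and none rose (median log2 fold change -0.17), where 12.1% of all genes fell. With the replicate block 6 fell and 1 rose, where 21.0% of all genes fell and 21.7% rose. Without the block, leaving out PC3 NSI replicate 3, or either of the siFOXA1 replicates 1 and 3, left 1 lower call. In VCaP 2 rose and 6 fell (median -0.14), where 22.5% of all genes rose and 23.3% fell, and 1 rose without any one of NSI replicates 1 and 2 and siFOXA1 replicates 2 and 3. HDAC1, the deacetylase of the complex, fell in both lines: from 216.7, 230.2 and 216.5 to 155.7, 173.6 and 157.7 CPM in PC3 (-0.45, edgeR adjusted p = 0.00571), and from 113.6, 107.9 and 113.9 to 86.5, 82.3 and 88.3 CPM in VCaP (-0.38, adjusted p = 0.000590). RCOR3, a CoREST scaffold paralog, rose in VCaP from 41.5, 41.3 and 37.5 to 69.5, 66.7 and 64.6 CPM (0.74, SE 0.06, adjusted p = 1.41e-05). In PC3 RCOR3 was at -0.17 (adjusted p = 0.234, and 0.0482 with the block). HMG20B fell in VCaP (-0.73, adjusted p = 6.86e-05) and stood at -0.34 in PC3 (adjusted p = 0.179, and 0.00401 with the block). KDM1B, the other gene of the same demethylase type, rose in VCaP (0.32, adjusted p = 0.0286) and was at -0.17 in PC3 (adjusted p = 0.301). The ratio of KDM1A to KDM1B per exon length was 45.9 in VCaP NSI and 32.7 in VCaP siFOXA1 without overlap, and 10.96 and 8.95 in PC3 with overlap (exact permutation p = 0.1 and 0.3).

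KMT2C (ENSG00000055609.17_3, chromosome 7, 151832010 to 152133090, minus strand) encodes MLL3, an enhancer H3K4 methyltransferase. It had the highest estimate of the 9 in each line. In PC3 it was at 85.6, 48.0 and 72.7 CPM in NSI and 94.9, 72.4 and 98.8 CPM under siFOXA1, and each siFOXA1 library exceeded the NSI library of its number. In VCaP it was at 263.3, 286.8 and 247.3 CPM in NSI and 287.8, 299.5 and 326.6 CPM under siFOXA1, with no overlap. The PC3 log2 fold change of 0.37 (95% interval -0.10 to 0.83) was not called (edgeR adjusted p = 0.215), but with the replicate block it was 0.39 (SE 0.08) and called (adjusted p = 0.00393). In that fit 21.7% of all genes were called higher and 21.0% lower. The VCaP value of 0.20 (95% interval 0.02 to 0.38) missed the threshold (adjusted p = 0.0715) and passed with upper-quartile factors or without VCaP NSI replicate 2. Parts of KMT2C have near-identical copies elsewhere in the genome, and fragments that map to several places were divided among them, so its level is uncertain.

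KMT2D (ENSG00000167548.14_4, chromosome 12, 49412758 to 49449107, minus strand), which encodes the related enhancer enzyme MLL4, was at 181.1, 93.2 and 168.4 CPM in PC3 NSI and 156.8, 126.4 and 180.0 CPM in PC3 siFOXA1. In VCaP it was at 139.0, 143.0 and 124.8 and at 137.5, 141.6 and 183.1 CPM. Groups overlapped in both lines, with VCaP siFOXA1 replicate 3 at 131% of the other siFOXA1 libraries of that line. The log2 fold changes were 0.07 (95% interval -0.47 to 0.60, edgeR adjusted p = 0.858) and 0.18 (-0.07 to 0.43, adjusted p = 0.203). The sign of the PC3 value turned negative without both replicate 2 libraries and after length adjustment. KMT2A (ENSG00000118058.20_3, chromosome 11, 118307205 to 118397547, plus strand), the promoter enzyme MLL1, was at 114.8, 64.7 and 95.7 and at 107.0, 84.9 and 115.9 CPM in PC3, and at 191.5, 203.6 and 192.3 and at 183.5, 190.5 and 216.5 CPM in VCaP. Its log2 fold changes were 0.16 (-0.29 to 0.62, adjusted p = 0.582) and 0.01 (-0.16 to 0.18, adjusted p = 0.948), and the latter changed sign with library size alone or without the low-count filter.

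COMPASS partners are here paralogs of these methyltransferases and subunits of this family's complexes, some shared by all and some found in only part of them. Of these, 15 were tested. In PC3 3 fell (WDR5, HCFC1 and PAXIP1) and none rose (median log2 fold change -0.17), where 12.1% of all genes fell. With the replicate block 8 fell and 1, KDM6A, rose, where 21.0% of all genes fell and 21.7% rose. Leaving out PC3 NSI replicate 3 or siFOXA1 replicate 1 left 1 lower call. In VCaP 6 fell and 1, ASH2L, rose (median -0.07), where 23.3% of all genes fell and 22.5% rose. WDR5, a scaffold that all these complexes need, fell in both lines: from 66.1, 71.1 and 66.8 to 52.0, 50.03 and 45.7 CPM in PC3 (-0.47, edgeR adjusted p = 0.00522), and from 57.2, 53.4 and 62.1 to 38.1, 39.1 and 37.4 CPM in VCaP (-0.59, adjusted p = 7.89e-05). ASH2L and DPY30, 2 further core subunits, went opposite ways in VCaP, with ASH2L at 0.37 (adjusted p = 0.000747) and DPY30 at -0.61 (adjusted p = 4.94e-05). In PC3 they were at 0.08 (adjusted p = 0.490) and -0.17 (adjusted p = 0.368).

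**Figure D4:**
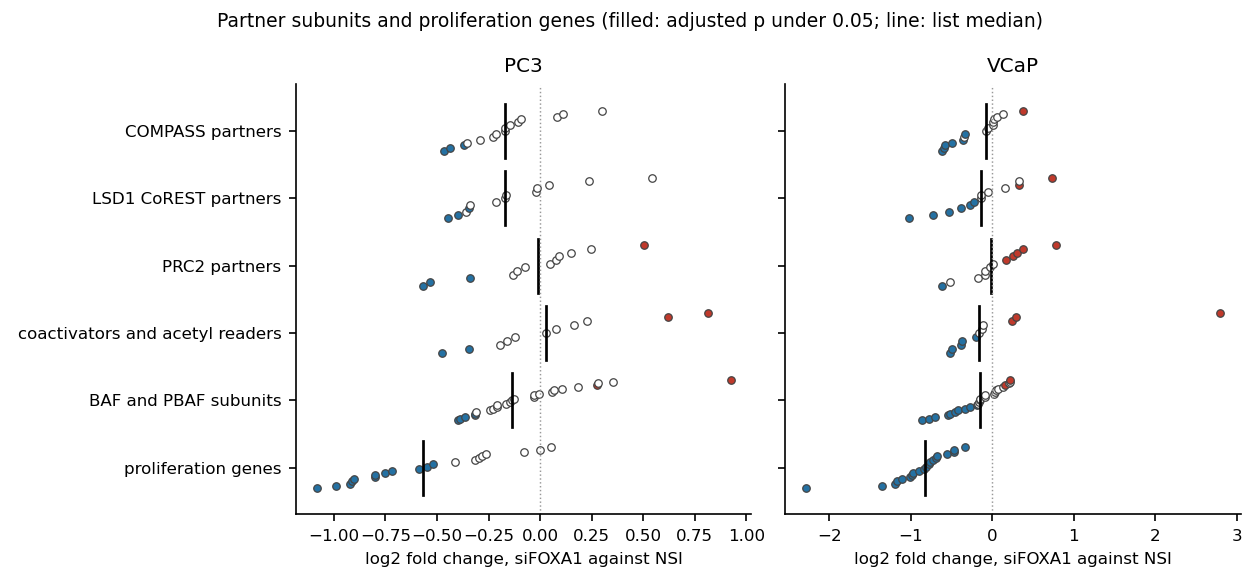
Log2 fold change of siFOXA1 against NSI (horizontal axes, which differ between the panels) for each tested gene of the 5 partner lists and of the proliferation list in PC3 (left) and VCaP (right); filled points passed an adjusted p of 0.05 (red higher, blue lower), and the line is the median of the list. The proliferation list lies furthest below 0, with medians of -0.57 and -0.82, while each partner list has points on both sides.

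EP300 (ENSG00000100393.12_3, chromosome 22, 41487790 to 41576083, plus strand) encodes the acetyltransferase p300. Its PC3 levels were 131.8, 79.9 and 120.0 CPM in NSI and 108.5, 87.2 and 118.5 CPM under siFOXA1, and in VCaP at 155.3, 162.0 and 160.7 and at 145.9, 149.8 and 152.2 CPM. Groups overlapped in PC3 and did not in VCaP, yet neither value passed: -0.08 in PC3 (95% interval -0.50 to 0.35, edgeR adjusted p = 0.785) and -0.09 in VCaP (-0.22 to 0.04, adjusted p = 0.216). CREBBP (ENSG00000005339.14_4, chromosome 16, 3775055 to 3930727, minus strand), its close paralog, was at 123.1, 81.6 and 108.2 and at 93.0, 79.1 and 94.7 CPM in PC3. In VCaP it was at 67.7, 67.7 and 68.4 CPM in NSI and 59.2, 65.0 and 66.9 CPM under siFOXA1. CREBBP stood at -0.23 in PC3 (-0.57 to 0.11, adjusted p = 0.287) and at -0.09 in VCaP (-0.23 to 0.05, adjusted p = 0.248). With the replicate block the PC3 value was -0.21 and called lower (adjusted p = 0.0416), as it was after length adjustment, without NSI replicate 2 and without both replicate 2 libraries. The ratio of EP300 to CREBBP per exon length was 1.19 and 1.32 in PC3 NSI and siFOXA1, and 2.64 in both VCaP groups.

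Of 11 tested coactivators and readers of acetylated histones, 2 rose and 2 fell in PC3, and 3 rose and 5 fell in VCaP (median log2 fold changes 0.03 and -0.16). Of all genes, 15.0% rose and 12.1% fell in PC3, and 22.5% rose and 23.3% fell in VCaP. With the replicate block 3 rose and 3 fell in PC3, where 21.7% of all genes rose and 21.0% fell. The lower count in PC3 became 1 when any library other than NSI replicate 2 was left out, and so did the higher count, except without siFOXA1 replicate 3, where it was 2. In VCaP 1 rose without NSI replicate 3. The CITED proteins, which bind p300 and CBP, went different ways. CITED4 rose from 0.69, 0.74 and 0.57 to 4.72, 4.85 and 4.32 CPM in VCaP (2.79, SE 0.14, edgeR adjusted p = 8.25e-07) and by 0.81 in PC3 (adjusted p = 0.0267). CITED2 rose in PC3 (0.62, SE 0.11, adjusted p = 0.00442) but fell in VCaP (-0.39, SE 0.07, adjusted p = 0.00156). KAT2B, the acetyltransferase PCAF, fell by 0.47 in PC3 (adjusted p = 0.0106) but rose by 0.29 in VCaP (adjusted p = 0.0271). NCOA3, a steroid receptor coactivator, fell in VCaP (-0.52, adjusted p = 0.000165) and stood at 0.03 in PC3 (adjusted p = 0.915).

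The 6 regulators not called in PC3 were the 6 with the longest exon sequence, from 9587 bp for EP300 to 19419 bp for KMT2D, and PC3 replicate 2 stood apart for all of them. In NSI replicate 2 these 6 genes were at 53.3% (KMT2D) to 72.6% (ARID1A) of the mean of the other NSI libraries. In siFOXA1 replicate 2 they were at 74.7% (KMT2C) to 84.3% (CREBBP) of the other siFOXA1 libraries. The 3 shorter genes were not low there: KDM1A (3128 bp), EZH2 (3062 bp) and SMARCA4 (7157 bp) were at 118%, 102% and 106% in NSI replicate 2. The whole library showed the same, with 9.15% of protein-coding counts in genes of at least 8000 bp in NSI replicate 2 and 10.2% in siFOXA1 replicate 2, against 11.4% to 12.3% in the other PC3 libraries. Without both replicate 2 libraries SMARCA4, KDM1A and EZH2 were still called lower in PC3, CREBBP was called lower and KMT2C higher. The wide PC3 intervals of these genes do not show that they were unchanged.

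**Figure D5:**
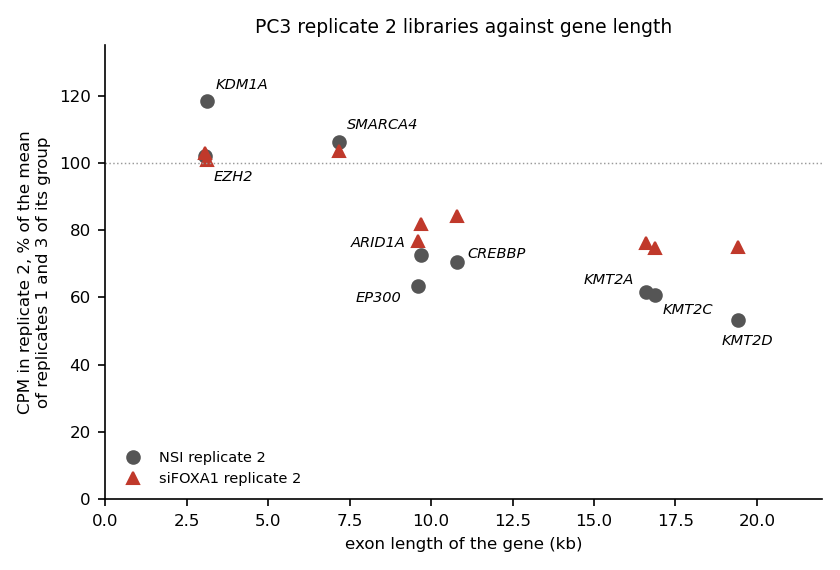
CPM of each regulator in PC3 replicate 2 as a percentage of the mean of replicates 1 and 3 of its group (vertical axis, from 0) against the exon length of the gene in kb; circles are NSI and triangles siFOXA1. The 3 genes up to 7157 bp lie at or above 100% and the 6 longer ones at 53.3% to 84.3%.

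Levels were also ordered per exon length, as TPM (a per-length share of the protein-coding nuclear counts), which serves only to compare genes within a group. Changes between groups differ on it: over genes averaging 5 CPM or more, the median log2 change of siFOXA1 against NSI was 0.03 in PC3 and 0.18 in VCaP as TPM, and -0.07 and -0.04 as CPM. The TPM means of SMARCA4, KDM1A, EP300 and CREBBP were higher under siFOXA1 in VCaP, and that of EP300 in PC3, where CPM were lower. EZH2 was lower in both lines, and SMARCA4 and KDM1A in PC3, on either scale. KDM1A was first in every group, at 160 ± 7.92 TPM in PC3 NSI, 125 ± 7.06 in PC3 siFOXA1, 223 ± 4.16 in VCaP NSI and 233 ± 3.41 in VCaP siFOXA1 (SD, n = 3). SMARCA4 followed at 151 ± 7.06 TPM in PC3 NSI, where the ranges of these 2 overlapped, and both stood clear of EZH2, the next, at 48.6 ± 4.18 TPM. The order then ran through ARID1A, EP300, CREBBP, KMT2D and KMT2A to KMT2C at 14.03 ± 4.78 TPM, with overlapping ranges between all neighbours from EZH2 down. In VCaP NSI, SMARCA4 (82.4 ± 3.00), EP300 (76.5 ± 4.28) and KMT2C (72.7 ± 9.04) followed KDM1A with overlapping ranges, and CREBBP was last at 28.9 ± 1.37 TPM. KMT2C thus went from the last place in PC3 to rank 4 in VCaP, in libraries made with different kits. Long genes as a class also took a larger share of the VCaP libraries. Genes of at least 8000 bp held 9.15% to 12.3% of protein-coding counts in PC3. In VCaP they held 16.7% to 18.2% in NSI and 18.8% to 19.0% under siFOXA1. The part of this shift in the rank of KMT2C was not tested. EZH2 had rank 3 of 9 in PC3 NSI, 4 in PC3 siFOXA1, 6 in VCaP NSI and 7 in VCaP siFOXA1. Its PC3 places were near ties with ARID1A. EZH2 was the higher of the 2 in only 1 of 3 PC3 NSI libraries. In PC3 siFOXA1 EZH2 was at 42.1 and ARID1A at 43.0 TPM, with overlapping ranges.

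Interferon response genes also moved with the siRNA. All 20 rose in PC3 (median log2 fold change 3.64), where 15.0% of all genes rose. Their summed level in PC3 went from 665.3 to 964.1 CPM in NSI to 7373 to 7790 CPM under siFOXA1. In VCaP 9 of 16 tested rose and 3 fell, where 22.5% of all genes rose and 23.3% fell. The VCaP sums were 205.1 to 215.0 CPM in NSI and 189.8 to 208.2 CPM under siFOXA1. The part of this response in the PC3 values of SMARCA4, KDM1A and EZH2 was not tested.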

How the data were processed

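The 12 libraries were analysed, 3 per group, grouped by their titles. Per the file headers, the authors made the deposited expected counts of each gene with featureCounts 2.0.0 on GENCODE v28lift37 basic exons (GRCh37), with fragments that mapped to several places or genes divided among them. PC3 counts ignored strand and VCaP counts used it. STAR 2.7.3a, featureCounts and Subread 2.0.0 are named in the submitters' processing notes. RNA with a RIN above 7 was used, per the labels' protocols.

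Counts were rounded and analysed with edgeR 4.0.16 in R 4.3.3 (TMM factors, filterByExpr by group, two-sided quasi-likelihood test, Benjamini-Hochberg adjustment over all genes tested, calls at an adjusted p under 0.05), by line and as the interaction over all 12 libraries, VCaP effect minus PC3 effect. Between 22925 and 30425 genes were tested. DESeq2 1.42.0 and other scalings, filters and left-out libraries were alternatives. The code was tested on simulated counts. Replicates differed beyond counting noise (chi-square per degree of freedom at least 11.0). The labels do not say whether replicates were separate cultures, so p-values measure the spread between these samples.

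Titles give NSI and siFOXA1 the same numbers. Correlations across genes of same-numbered deviations from group means were 0.52, 0.63 and 0.24 in PC3, so the numbers were taken to pair the libraries there, and the blocked value is given where it changes a PC3 call or count in the text.

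TPM used the exon lengths in the tables. Ratios of paralogs used 0.5 added counts and exact permutation tests. Named genes were the 9 regulators and FOXA1, the paralogs in 7 pairs, the called gene with the smallest adjusted p of each direction, line and partner list (5 lists, 79 genes), MKI67 and TOP2A, and for regulators called in both lines the 3 genes of highest correlation (log2 CPM with 0.5 added). EPOP, AEBP2, HDAC2, HCFC1, PAXIP1, KDM6A, MCM2, MCM3 and MCM5 were named after their values were seen. Some genes of the lists are not reported here. The regulators and lists were chosen with earlier results of these data known. Coordinates are those of the tables (GRCh37), except promoter windows (RefSeq, GRCh38.p14).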

Additional observations from a re-analysis of the deposited data

Results flagged for a closer look

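Each gene here had a different effect of FOXA1 siRNA in the 2 lines by the interaction test of edgeR (adjusted p under 0.05); values are the VCaP minus the PC3 log2 fold change. Among the regulators this was SMARCA4 alone, at 0.47 (SE 0.11, adjusted p = 0.00447). In the fits of each line SMARCA4 was lower in both, and more so in PC3. Its VCaP call was lost in 5 of 16 alternatives, and on the TPM scale its VCaP groups overlapped. FOXA1 itself differed by -1.93 (SE 0.15, adjusted p = 3.12e-07), which goes with 63.8% of its level remaining in PC3 and 16.5% in VCaP.

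Among SWI/SNF subunits, SMARCA2 differed by -0.43 and SMARCD1 by -0.48, and BRD9 and BCL7B by 0.52 and 0.63. Among COMPASS subunits, ASH2L differed by 0.31 and DPY30 by -0.42. RCOR3 and KDM1B of the CoREST list differed by 0.93 and 0.51. In PRC2, SUZ12 differed by 0.50 and RBBP4 by -0.75. Among coactivators, CITED2 differed by -0.98, KAT2B by 0.79 and CITED4 by 2.00. Of the genes most like EZH2, KNSTRN differed by -0.48 and KIF4A by -0.49, and of those most like SMARCA4, NSUN2 differed by 0.38 and NONO by 0.95. These 4 were chosen for likeness over the same 12 libraries, so their values describe the choice and are no separate support. The partner genes, apart from the paralogs SMARCA2 and KDM1B, were named as the strongest calls of a direction and line in these libraries. That choice favours a difference between the lines, so their values are no separate support either. Kit, dose, medium and strand use differ with the line and cannot be told apart from it.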

How the results depend on the processing

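Lower calls of SMARCA4 and KDM1A in PC3 held in all 17 alternatives run, that of EZH2 in VCaP in all 16, and the difference of SMARCA4 between lines in all 21. EZH2 in PC3 kept its call in 13 of 17 and SMARCA4 in VCaP in 11 of 16. The regulators called in PC3 were 3 lower and 0 higher; the replicate block gave 1 higher, as did leaving out both replicate 2 libraries, and a length adjustment 5 lower (ARID1A and CREBBP added). The last 2, and the alternative TMM reference, were chosen after seeing the data. In VCaP, upper-quartile factors gave 1 higher and 1 lower, the fit of all 12 libraries 1 lower, and leaving out a replicate 0 to 1 higher and 1 to 2 lower. For the difference between lines, DESeq2, the length adjustment and the replicate block gave 2 (KDM1A added), and leaving out a replicate 1 to 2. With the block, of the other genes named, differences between lines also passed for EZH1 (0.31, adjusted p = 0.0313), HMG20B (-0.37, 0.0315), NCOA3 (-0.54, 0.00158) and MARK3 (0.27, 0.0301). Of COMPASS partners in PC3, 5 fell with DESeq2, the alternative TMM reference or length adjustment and 1 with library size alone, and 5 CoREST partners fell with length adjustment. Of BAF and PBAF subunits in VCaP, 0 rose with DESeq2 and in the fit of all 12 libraries. Of coactivators and readers, 3 fell in VCaP in the fit of all 12, and with library size alone 1 rose in VCaP and 1 fell in PC3. Over all genes in PC3, 3955 rose and 3194 fell; the block gave 5563 lower, leaving out both replicate 2 libraries 4974 lower, and leaving out one replicate 2425 to 4327 higher and 1520 to 3535 lower (the lowest of each without siFOXA1 replicate 1). Same-numbered VCaP libraries correlated at 0.12, 0.05 and 0.39, so the numbers were not taken to pair there, and the block changed no call of the 9 in VCaP.

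Values near 0 changed sign, none of them called; the cause was not tested. On the log2 scale in PC3, leaving out a replicate gave -0.038 to 0.35 for KMT2A, -0.18 to 0.23 for KMT2D and -0.27 to 0.063 for EP300, and KMT2D was -0.068 with length adjustment and -0.054 without both replicate 2 libraries. In VCaP, KMT2A was -0.069 with length adjustment, -0.0106 with library size alone and -0.0032 without a filter, and leaving out a replicate gave -0.067 to 0.049 for KMT2A and -0.11 to 0.089 for ARID1A. For the difference between lines it gave -0.39 to 0.026 for KMT2A, -0.40 to 0.015 for KMT2C, -0.091 to 0.35 for KMT2D, -0.20 to 0.15 for EP300 and -0.039 to 0.27 for CREBBP. EP300 there was also -0.0286 with DESeq2 and with DESeq2 size factors, -0.089 with library size alone, -0.0056 without a filter, -0.0154 with the replicate block and -0.0074 with upper-quartile factors. Paralog ratios without exon length were not run, since length cancels in their changes.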
